A study of Mus musculus with 4 samples.

Results

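The genes described here encode the MHC class I antigen presentation pathway, and 10 were named: B2m, H2-D1, H2-K1, Tap1, Tap2, Tapbp, Psmb8, Psmb9, Psmb10 and Erap1. They were chosen by name and pathway, and each was sought by symbol in the mutant table, with its gene identifier then looked up in the wild-type table. This gave 6 of the 10 among the 14427 genes of the mutant table (B2m, H2-D1, Tap2, Tapbp, Psmb10 and Erap1), of which all but Tap2 were among the 13478 genes in both tables. H2-K1 was read in the wild-type table alone, from its annotation text, and Tap1, Psmb8 and Psmb9 were not analysed here.

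The data are from RNA immunoprecipitation sequencing, in which RNA held by a tagged protein is pulled down with an antibody and compared with input RNA. The cells were 15376CAFs, a mouse line labelled as pancreatic cancer-associated fibroblasts (CAFs), the stromal fibroblasts of pancreatic tumours. They overexpressed Flag-tagged Lin28b, either the mutant Lin28b-MU, described as deficient in RNA binding, or the wild-type protein Lin28b-WT. The 4 groups were the Lin28b-MU IP, the Lin28b-MU input, the Lin28b-WT IP and the Lin28b-WT input, each a single library of that line, prepared with a stranded mRNA kit. With 1 library per group, nothing below was replicated and no difference was tested.

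In MHC class I antigen presentation, proteasomes cut cytosolic proteins into peptides, and interferon-inducible immunosubunits (the products of Psmb8, Psmb9 and Psmb10) replace the constitutive catalytic subunits. The transporter encoded by Tap1 and Tap2 carries the peptides into the endoplasmic reticulum, where the aminopeptidase Erap1 trims them and tapasin, the product of Tapbp, holds empty class I molecules at the transporter. The loaded complex of a heavy chain (H2-K1, H2-D1) and the light chain beta-2 microglobulin (B2m) then displays the peptide to CD8+ T cells. Interferons, NF-kB and the coactivator encoded by Nlrc5 are known inducers of these genes. Lin28b is an RNA-binding protein known for blocking let-7 microRNA maturation and for binding many mRNAs.

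The promoter windows shown are those of the class I genes measured in at least 1 table that held the letters searched for either of 2 elements. These were an interferon element and an NF-kB site. The sequences are RefSeq's, build GRCm38.p6, written 5′ to 3′ on the gene's strand, from 250 bases before to 50 bases after the RefSeq transcript start. Capitals mark matches to GAAA, any 2 bases and GAAA on either strand, the core of an interferon-stimulated response element. They also mark GGGG, ATT and CCCC in a row, a form of NF-kB site. Only these letters were marked, so other forms of either element may stand in the windows unmarked. The windows lie at chr2:122147437-122147736 (B2m, plus strand), chr17:35262844-35263143 (H2-D1, plus strand), chr17:34000298-34000597 (H2-K1, minus strand, the first of its 2 entries) and chr13:74639603-74639902 (Erap1, plus strand).
B2m: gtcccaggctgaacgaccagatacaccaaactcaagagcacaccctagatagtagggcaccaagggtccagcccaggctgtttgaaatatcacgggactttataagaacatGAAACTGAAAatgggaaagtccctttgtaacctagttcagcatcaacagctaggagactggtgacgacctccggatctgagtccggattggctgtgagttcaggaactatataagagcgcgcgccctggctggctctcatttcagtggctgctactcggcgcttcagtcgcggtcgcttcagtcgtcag
H2-D1: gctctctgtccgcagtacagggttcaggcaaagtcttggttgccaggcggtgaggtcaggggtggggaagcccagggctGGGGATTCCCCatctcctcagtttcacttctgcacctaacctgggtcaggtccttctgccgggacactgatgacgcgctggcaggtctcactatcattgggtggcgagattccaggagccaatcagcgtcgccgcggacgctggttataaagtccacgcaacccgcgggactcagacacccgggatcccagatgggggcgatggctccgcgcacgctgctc
H2-K1: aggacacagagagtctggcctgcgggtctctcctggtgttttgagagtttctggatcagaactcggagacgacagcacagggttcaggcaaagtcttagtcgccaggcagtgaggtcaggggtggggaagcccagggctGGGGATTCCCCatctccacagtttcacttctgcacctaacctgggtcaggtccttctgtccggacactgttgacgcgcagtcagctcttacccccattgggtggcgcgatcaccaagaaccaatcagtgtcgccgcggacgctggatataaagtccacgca
Erap1: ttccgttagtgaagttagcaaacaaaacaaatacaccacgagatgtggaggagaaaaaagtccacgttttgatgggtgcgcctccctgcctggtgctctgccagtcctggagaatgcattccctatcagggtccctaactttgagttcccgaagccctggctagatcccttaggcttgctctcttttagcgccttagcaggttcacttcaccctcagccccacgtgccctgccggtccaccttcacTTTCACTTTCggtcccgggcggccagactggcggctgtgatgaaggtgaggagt

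The B2m window held GAAACTGAAA at −139 to −130 from the start, counting the first transcribed base as 0, and the Erap1 window held the reverse complement form, TTTCACTTTC, at −4 to 5. Both strands were searched for the exact letters of 4 motifs chosen after values had been seen, so other forms of these elements were not counted. The interferon letters stood in 3.44% of all 32851 RefSeq promoter windows. Of the interferon-stimulated genes listed below, 29 had a window and 16 of these held them. The NF-kB letters stood in the windows of H2-D1 and H2-K1, which make up 3 of the 10 windows with them (0.0304% of all), since H2-K1 has 2 entries whose windows overlap. The letters were picked for a description of class I genes, so their rarity over all windows is no measure of enrichment here. The same windows of H2-D1 and H2-K1 held TGACGC, letters searched for as a form of the cyclic AMP response element. These letters stood in 7.40% of all windows and overlapped no other match in those of H2-D1 and H2-K1. The B2m window held TGACGA, which shares TGACG with them but was not counted, so windows without a match may still hold the element. The fourth motif, TTC, any 3 bases and GAA, the gamma-activated sequence, was in 8.30% of all windows and in that of Psmb8, but in none of those printed. The windows of Tapbp and Psmb10 matched none of the 4 motifs. Tap2 is named only. A match describes the sequence, and binding to DNA was not measured.

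The levels of these mRNAs covered a wide range, from abundant heavy and light chain mRNAs to Tap2 near the lower limit of the tables. Levels are read as FPKM, which are scaled to gene length and library size, so genes can be compared within a library. B2m was the most abundant, at 196 FPKM in the mutant IP, 748 in the mutant input, 159 in the wild-type IP and 188 in its input. It ranked 16 among all genes of the mutant input and 225 in the wild-type input. The heavy chain gene H2-D1 stood at 147 FPKM in the mutant IP, 310 in the mutant input, 40.8 in the wild-type IP and 78.8 in its input. Both libraries of the mutant lay above both wild-type libraries for B2m and H2-D1. For B2m the mutant input stood apart and the 2 IPs lay close together. The tapasin gene Tapbp stood at 66.2 FPKM in the mutant IP, 114 in the mutant input, 14.3 in the wild-type IP and 46.6 in its input. Psmb10, the immunosubunit that replaces the product of Psmb7, stood at 6.46 FPKM in the mutant IP and 21.2 in its input, against 3.86 in the wild-type IP and 10.2 in its input. For Tapbp both mutant libraries lay above both wild-type libraries, whereas for Psmb10 the mutant IP lay below the wild-type input. Erap1 stood at 14.4 FPKM in the mutant IP, 9.52 in the mutant input, 4.06 in the wild-type IP and 2.91 in its input, with both mutant libraries above both wild-type ones. It was the one gene of those in both tables with more RNA in each IP than in its input. Tap2 stood at 0.267 FPKM in the mutant IP and 0.210 in the mutant input and was not analysed in the wild-type libraries. H2-K1 stood at 30.6 FPKM in the wild-type IP and 62.5 in its input, below H2-D1 in both. H2-K1, H2-D1 and the other class I heavy chain genes are near-identical in part, so reads may be shared among them and their levels are uncertain. Zbtb22 overlaps Tapbp on the same strand over 3422 bases and could share reads with it. Its levels in the inputs were 10.9 FPKM in the mutant and 11.4 in the wild type.

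**Figure D1:**
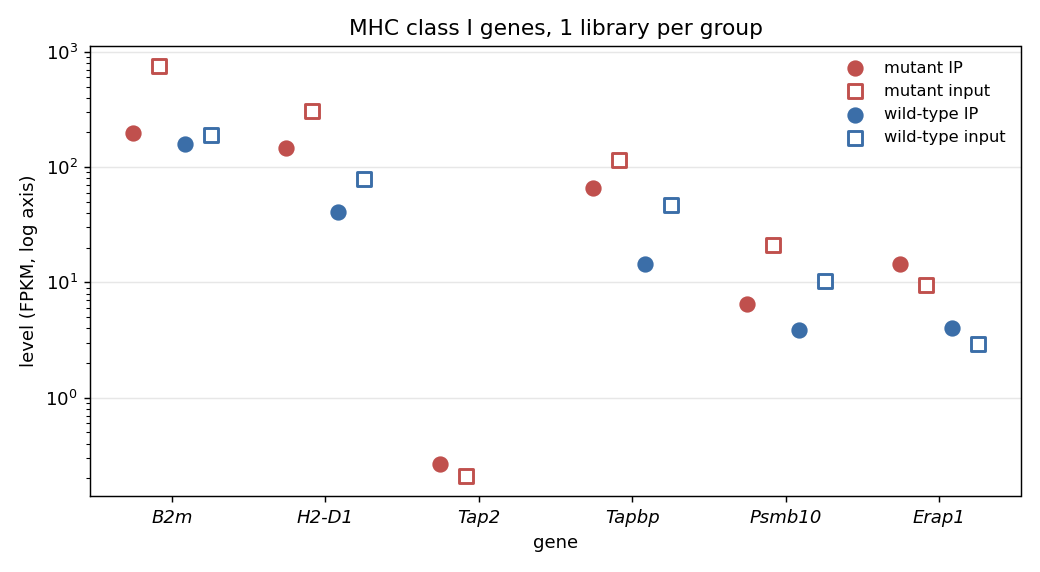
Level of each MHC class I gene of the mutant table in each library (vertical axis, FPKM on a log axis; circles are IPs, squares are inputs, red the mutant and blue the wild type; 1 library per point). B2m runs from 748 FPKM in the mutant input to 159 in the wild-type IP, and Tap2, with mutant values alone, is lowest at 0.267 and 0.210.

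The inputs of the constructs differed in these genes, with more RNA in the mutant cells for every gene measured in both tables. All 5 were at least 2-fold higher in the mutant input than in the wild-type input, where 8.70% of the 13478 genes in both tables were, and 0 were at least 2-fold lower, where 8.32% were. The median log2 ratio of mutant input over wild-type input was 1.70, against 0.04 over all genes. B2m and H2-D1 stood 3.97-fold and 3.93-fold higher, Erap1 3.26-fold, Tapbp 2.45-fold and Psmb10 2.07-fold. In this order, Psmb10 lay just past the 2-fold mark, with a log2 ratio of 1.05, and B2m and H2-D1, at 1.99 and 1.97, were almost equal. H2-K1, at 62.5 FPKM in the wild-type input, had no mutant value here. Its direction between the inputs is unknown, and the 5 genes leave it out. The constructs were deposited in separate tables and no common scaling of them is stated, which limits every level set across constructs. In bulk RNA, a change in the share of cells that express a gene and a change in RNA per cell cannot be told apart.

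The 3 members of the mutant table on chromosome 17 lie in or beside the MHC, and most genes between them were within 2-fold between the inputs. Tapbp (17:33915899-33929292, GRCm38) and H2-D1 (17:35262730-35267499) bound a stretch with 50 other protein-coding genes in both tables, H2 genes left out. Of these 50, 1 was at least 2-fold higher in the mutant input and 8 were at least 2-fold lower, with a median log2 ratio of −0.20. Over all genes in both tables, 8.70% were higher and 8.32% lower, so most of those were within 2-fold too. B2m (2:122147686-122153083), Psmb10 (8:105935735-105938444) and Erap1 (13:74639568-74693201) lie on other chromosomes. Tap2 (17:34203527-34216321) and H2-K1 (17:33996017-34000347) lie inside the stretch and have no ratio between the inputs here. This stretch was chosen after the values had been seen.

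Other class I heavy chain genes were in part more abundant in the mutant input, whereas loading chaperones lay within 2-fold. Of 7 such heavy chain genes and relatives in both tables, 4 were at least 2-fold higher in the mutant input and 1 was lower. Over all genes in both tables, 8.70% were higher and 8.32% lower, so lying within 2-fold, as the lists below did, was usual. The nonclassical class I genes H2-M3, H2-T24 and H2-T22 stood at 10.6, 7.39 and 66.5 FPKM in the mutant input, against 0.150, 0.388 and 10.2 in the wild-type input. Fcgrt, which encodes the neonatal Fc receptor and pairs with B2m, went the other way, at 0.630 FPKM in the mutant input and 4.48 in the wild-type input. Of 11 genes for peptide loading chaperones and their glycoprotein quality control partners, 0 were past 2-fold in either direction between the inputs, and the median was −0.04. Calreticulin (Calr), a chaperone of the loading complex, stood at 344 FPKM in the mutant input and 443 in the wild-type input. The 3 constitutive proteasome subunits that immunosubunits replace, Psmb5, Psmb6 and Psmb7, were also within 2-fold between the inputs, with a median of 0.29. So were all 9 genes of proteasome activators and assembly factors and all 7 measured peptidase genes, with medians of 0.48 and 0.22.

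Known regulators of class I transcription were at least 2-fold higher in the mutant input in 1 of 12 cases, Nlrc5, and lower in 0. Over all genes in both tables, 8.70% were at least 2-fold higher and 8.32% lower, so this count lies near that share. Nlrc5, the class I coactivator gene, stood at 4.57 FPKM in the mutant input and 0.129 in the wild-type input. Of 13 genes for interferon receptors and signalling, the 2 that were at least 2-fold higher in the mutant input were Irf9 and Stat2. Irf9 and Stat2, whose products act together in type I interferon signalling, stood at 12.4 and 25.4 FPKM in the mutant input, against 2.98 and 7.57 in the wild-type input. Of 38 interferon-stimulated genes in both tables, 37 were at least 2-fold higher in the mutant input, with a median log2 ratio of 4.73. Among the highest ratios were those of the guanylate-binding protein genes Gbp7 and Gbp3, at 19.0 and 49.8 FPKM in the mutant input and 0.0358 and 0.427 in the wild-type input, Ifi44, at 48.5 and 0.173, and the oligoadenylate synthetase gene Oas1g, at 19.1 and 0.164. The wild-type values are so low that these ratios depend on the pseudocount. The median of the 5 class I genes lay below that of the interferon-stimulated list. The 8 measured genes of class I surface turnover were within 2-fold between the inputs.

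**Figure D2:**
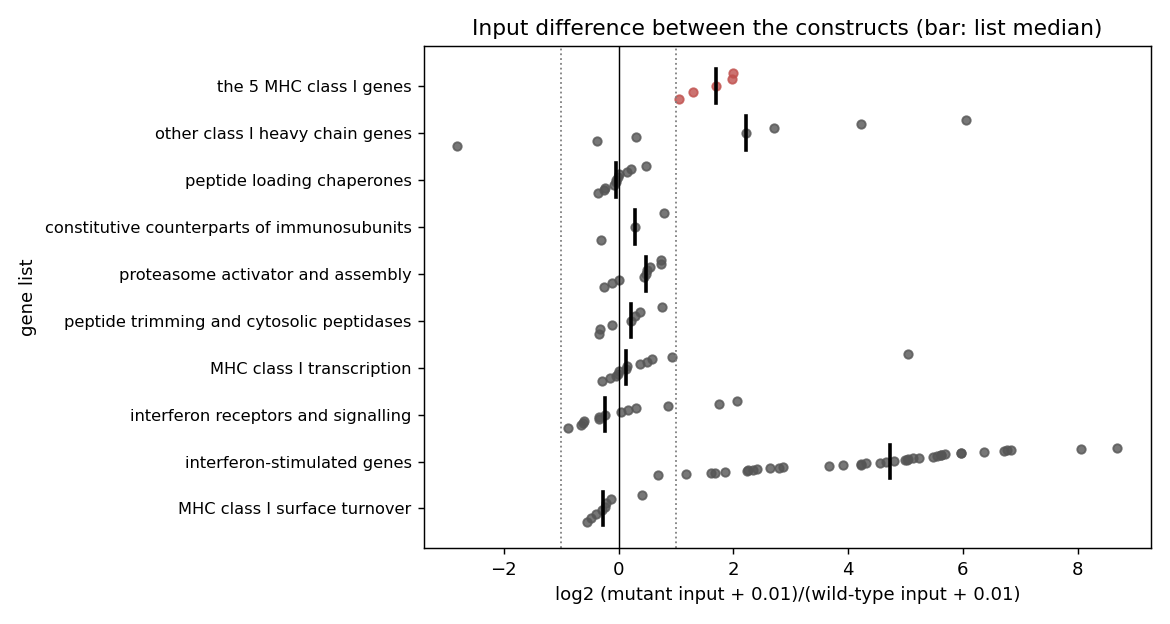
Log2 ratio of mutant input over wild-type input (horizontal axis) for the 5 MHC class I genes in both tables and for the other gene lists (rows); each point is a gene, black bars are list medians and dotted lines mark 2-fold. The 5 class I genes lie between 1.05 and 1.99, the interferon-stimulated genes have a median of 4.73, and the chaperone list sits around 0.

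Marker genes of leukocytes and antigen-presenting cells, which express class I genes strongly, were at low levels. Of 13 such markers, 2 were measured, Cd68 and Cd74, with summed levels of 0.756 FPKM in the mutant IP and 3.03 in its input, against 0.341 in the wild-type IP and 0.898 in its input. Their part in the input difference was not tested. Of 12 fibroblast markers, 5 were measured, with summed levels of 633 FPKM in the mutant input and 703 in the wild-type input, nearly all of it from Vim and Sparc. Vim, which many cultured lines express, had 547 and 607 FPKM, and the matrix gene Sparc had 83.8 and 93.8. The more specific markers were low, with 0.404 and 0.722 FPKM for the collagen gene Col1a1, 0.860 and 1.33 for the receptor gene Pdgfra, and 0.524 and 0.227 for Acta2, a contractile actin gene. Of 8 epithelial markers, 5 were measured, with summed levels of 1374 FPKM in the mutant input and 1912 in the wild-type input. Among these, the keratin genes had 494 (Krt8), 441 (Krt18), 322 (Krt19) and 3.32 FPKM (Krt7) in the mutant input, against 601, 395, 665 and 31.7 in the wild-type input. The cadherin gene Cdh1 had 114 FPKM in the mutant input and 219 in the wild-type input. Krt7 and Krt19 were more than 2-fold lower in the mutant input, so the inputs differed in epithelial markers too, and the part of this in the class I difference was not tested. The marker levels go against the fibroblast label, and the line is called 15376CAFs here by that label alone. The 5 endothelial markers were not analysed here. Lin28b mRNA, without separating the transgene from the cells' own gene, stood at 30.01 FPKM in the mutant input and 13.8 in the wild-type input.

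The next question was how the level of each mRNA in the IP compared with its input. Recovery here means the log2 ratio of IP over input with 0.01 added to each level. Levels are relative within a library, so this ratio is not an amount of RNA. No library came from untagged cells or a control antibody, so RNA in an IP may not all be held by the tagged protein. In the mutant, 3 of the 6 genes were at least 2-fold lower in the IP, where 37.8% of all genes of the mutant table were, and 0 were at least 2-fold higher, where 6.69% of all genes were. In the wild type, 2 of the 5 genes were at least 2-fold lower, where 23.3% of all genes were, and 0 were higher, where 8.59% were. The median ratio was −0.93 in the mutant for 6 genes, against −0.61 over all genes, and −0.95 in the wild type for 5 genes, against −0.29 over all genes. No member was past 2-fold enrichment with either protein.

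By role, the chains of the class I complex were recovered below input with both proteins, though to different degrees. B2m had a log2 ratio of −1.93 in the mutant and −0.24 in the wild type, so its level was 3.81-fold below input in the mutant and 1.18-fold below input in the wild type, where centring on the median of all genes turned the sign (0.05). In the mutant, 17.6% of all genes had a lower ratio than B2m, and in the wild type 52.4% had. H2-D1 had −1.07 in the mutant and −0.95 in the wild type, nearly the same in both. H2-K1 had −1.03 in the wild type, close to its paralogue.

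Tapbp and Psmb10 were also lower in each IP. Tapbp had a log2 ratio of −0.79 in the mutant and −1.70 in the wild type, and 9.52% of all genes had a lower ratio in the wild type. Psmb10 had −1.71 in the mutant and −1.40 in the wild type. Erap1 had 0.59 in the mutant and 0.48 in the wild type, above 86.8% of all genes in the mutant and above 79.6% in the wild type, but short of 2-fold in both. Tap2 had 0.33 in the mutant, from levels of 0.267 and 0.210 FPKM. Whether the counting of reads used strand is not stated, so reads of Erap1 and of Cast, which overlaps its end on the other strand, may not be separate there.

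**Figure D3:**
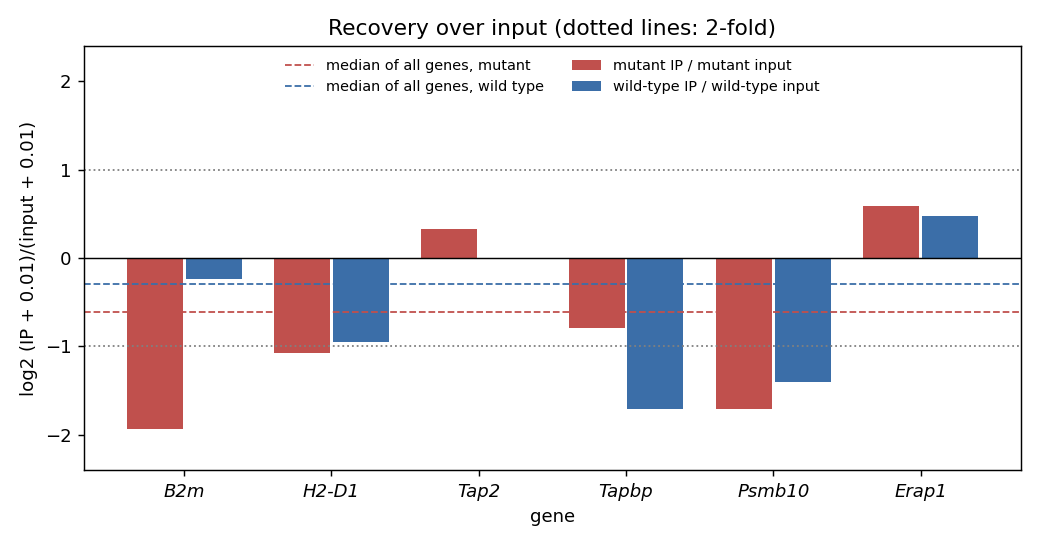
Log2 ratio of IP over input (vertical axis) for each MHC class I gene, with bars in red for the mutant and blue for the wild type, dashed lines at the median of all genes and dotted lines at 2-fold. B2m has the largest gap between the constructs, −1.93 against −0.24, and Erap1 is above 0 in both, at 0.59 and 0.48; Tap2 has no wild-type bar.

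The ratios were then set against each other, as mutant ratio minus wild-type ratio, to see whether the binding-deficient mutant and the wild-type protein recovered these mRNAs differently. Of the 5 genes, 1 was lower by at least 1 on this log2 scale, where 26.1% of all genes were, and 0 were higher by that much, where 7.37% were. That gene was B2m, with a difference of −1.69. Its 2 IP levels, 196 and 159 FPKM, differed less than its inputs, 748 and 188 FPKM. Tapbp had the opposite sign, with 0.92, just short of the threshold. H2-D1, Psmb10 and Erap1 had differences of −0.12, −0.31 and 0.11, of which the first and second turned positive (0.20 and 0.01) after centring on the median of all genes. The median of the 5 was −0.12, against −0.32 over all genes. After that centring, B2m stood at −1.36 and Tapbp at 1.24, both past the threshold.

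Recovery differed with the length of the gene among all genes, and all of the class I genes but Erap1 are short. Psmb10 spans 2.71 kb, H2-D1 4.77 kb, B2m 5.40 kb, Tap2 12.8 kb and Tapbp 13.4 kb, whereas Erap1 spans 53.6 kb. For the 3769 protein-coding genes in both tables that span at most 14 kb, the mutant ratio had a median of −1.25 and the wild-type ratio one of −0.69. For the 7491 longer ones the medians were −0.19 in the mutant and −0.05 in the wild type. The 14 kb limit was set after values had been seen. B2m and Psmb10 lay below the short-gene median in the mutant, and H2-D1 and Tapbp above it. In the wild type, B2m lay above the short-gene median and the other short members below it. Across the 6 genes in the mutant the Spearman rho of ratio with span was 0.77, and across 5 genes in the wild type it was 0.40, over genes that share a library. The part of span in these ratios was not tested.

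**Figure D4:**
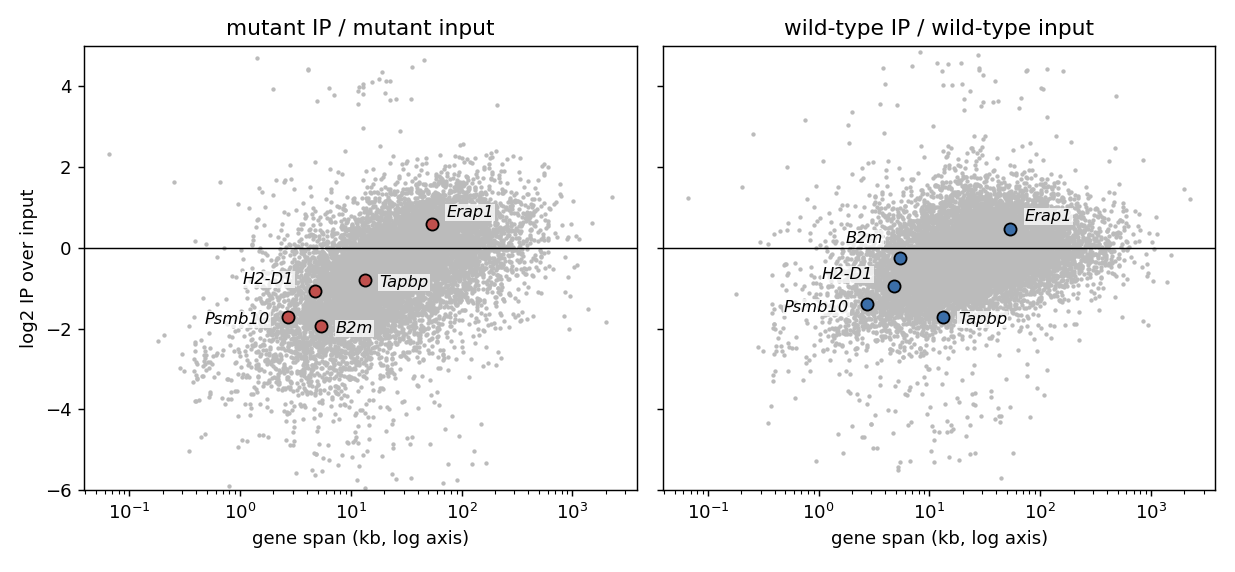
Log2 ratio of IP over input (vertical axis) against gene span (kb, log axis) for 11260 protein-coding genes in both tables (grey), with the 5 MHC class I genes as coloured points, mutant at left and wild type at right; 36 and 25 genes lie beyond the vertical axis and are not drawn. Erap1, at 53.6 kb, lies above 0 in both panels and the 4 short genes lie below 0.

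Among related genes of the pathway, most of those of the proteasome were recovered below input in the mutant, as were 10202 of all 14427 genes. Over all genes, 37.8% were at least 2-fold lower and 6.69% higher in the mutant, against 23.3% and 8.59% in the wild type. All 3 constitutive proteasome subunits were at least 2-fold lower in the mutant IP, and Psmb5 and Psmb6 were in the wild-type IP as well. Psmb5 stood at 7.01 FPKM in the mutant IP and 42.8 in the mutant input, against 25.2 in the wild-type IP and 52.9 in its input. Psmb7, the constitutive counterpart of Psmb10, had log2 ratios of −1.25 in the mutant and −0.54 in the wild type. Of 9 genes for proteasome activators and assembly factors, 6 were at least 2-fold lower and 1 higher in the mutant, against 2 lower and 1 higher in the wild type. The activator subunit genes Psme1 and Psme2 had log2 ratios of −2.44 and −2.29 in the mutant and −0.77 and −0.96 in the wild type. The assembly chaperone genes Psmg1 and Psmg4 had −2.61 and −2.87 in the mutant and −0.40 and −1.81 in the wild type.

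The peptide trimming and cytosolic peptidase genes stood higher, as Erap1 did. Recovery differed with gene span over all genes, and the part of span in this and the other gene lists was not tested. Of 7 measured, 2 were at least 2-fold higher and 1 lower in the mutant, against 1 higher and 1 lower for the wild type. The medians were 0.43 in the mutant and 0.62 in the wild type, against −0.61 and −0.29 over all genes. Of all genes, 6.69% were at least 2-fold higher and 37.8% lower in the mutant, against 8.59% and 23.3% in the wild type. Tpp2, which encodes tripeptidyl peptidase II, stood at 53.6 FPKM in the mutant IP and 23.1 in its input, against 29.1 in the wild-type IP and 18.9 in its input. Ide, the insulin-degrading enzyme gene, had log2 ratios of 1.01 in the mutant and 1.21 in the wild type, and Thop1, a cytosolic oligopeptidase gene, had −1.14 and −1.45. The other class I heavy chain genes were at least 2-fold lower in 6 of 10 cases in the mutant and 2 of 7 in the wild type. Some of these were under 1 FPKM in both libraries of the construct. H2-T22 had −1.43 in the mutant and 0.39 in the wild type. H2-M3 had 4.04 FPKM in the mutant IP, whereas the wild-type IP listed it at 0.

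The counts of the next lists stand beside shares over all genes of 6.69% higher and 37.8% lower in the mutant. In the wild type those shares were 8.59% and 23.3%. Of 11 loading chaperone genes, 1 was higher and 3 were lower in the mutant, against 0 and 1 in the wild type. Uggt1, whose product reglucosylates misfolded glycoproteins, was the higher one, with 1.01 in the mutant and 0.53 in the wild type. Calr had −1.35 and −0.40, Prkcsh, a glucosidase II subunit gene, −1.02 and −1.34, and the tapasin-related gene Tapbpl −1.15 and −0.63. Among 12 transcription genes, 1 was higher and 3 were lower in the mutant and 2 were higher and 3 lower in the wild type. Rfxank, which encodes a subunit of the RFX complex on class I promoters, had −2.31 in the mutant and −1.24 in the wild type, and the NF-Y subunit gene Nfyc had −2.07 and −0.38. Creb1, which encodes a cyclic AMP response element binding protein, had 1.62 in the mutant and 1.61 in the wild type. Of 13 interferon signalling genes, 0 were higher and 4 lower in the mutant, against 2 higher and 1 lower in the wild type. The signalling suppressor gene Socs3 had −1.74 and −0.87, and Ifngr2, an interferon gamma receptor chain gene, had −1.71 and −0.06. Of 39 interferon-stimulated genes in the mutant table, 1 was higher and 13 were lower, and of 38 in both, 2 were higher and 6 lower in the wild type. Of 8 turnover genes, 0 were higher and 1 lower in the mutant and 1 was higher and 1 lower in the wild type. These were Rnf5, a membrane ubiquitin ligase gene, with −2.05 and −1.40, and the intramembrane protease gene Sppl2a, with 0.39 and 1.01.

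The peak lists place recovery along the RNA. Peaks were the authors' own, with 1 list per IP and a strand for each peak, and a peak was given to a gene where its summit lay in the gene on its strand. Of the 6 class I genes, 1 carried a peak in the mutant IP, where 17.5% of all genes of that table did. Of the 5 in the wild-type table by the same rule, 1 carried a peak, where 23.1% did. Erap1 was that gene in both lists, and B2m, H2-D1, Tapbp and Psmb10 had 0 peaks in both. H2-K1 had 0 peaks as well, and Tap2 had 0 in the mutant list. Of the protein-coding genes that span at most 14 kb, 4.03% carried a mutant peak and 12.8% a wild-type peak. Of the longer ones, 30.9% carried a mutant peak and 37.7% a wild-type peak.

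The peaks of Erap1 lay at different places in the 2 lists. In the mutant list, 1 lay at chr13:74666302-74666554, with its summit 26.8 kb from the gene start and a fold of 3.66, and 1 lay at chr13:74691478-74691677, 1.58 kb before the gene end, with a fold of 2.49. In the wild-type list, 1 lay at chr13:74660181-74660380, with its summit 20.7 kb from the gene start and a fold of 5.87. Neither list's peak overlapped one of the other. How often peaks overlap between the whole lists was not analysed here, so this is not read as particular to Erap1. The fold is the authors' enrichment at the summit, and the medians of the lists were 4.22 over 15931 mutant peaks and 3.77 over 11912 wild-type peaks. Both mutant peaks lay below their list's median and the wild-type peak above its own. A further wild-type peak with a fold of 4.32 lay on the opposite strand, with its summit 0.639 kb before the end of Erap1, where Cast, a calpastatin gene on that strand, overlaps it by 834 bases. Whether the Erap1 peaks lie in exons was not analysed here.

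**Figure D5:**
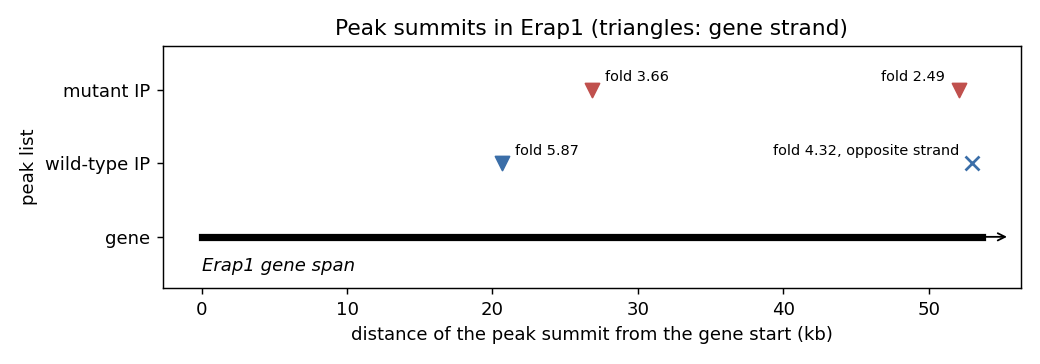
Peak summits in Erap1 by distance from the gene start (horizontal axis, kb), with the mutant list above the wild-type list; triangles are peaks on the gene's strand, the cross is a peak on the opposite strand, and labels give the authors' fold. The mutant summits lie at 26.8 and 52.1 kb and the wild-type summit at 20.7 kb.

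Of the related lists, the interferon-stimulated genes carried a mutant peak in 12 of 39 genes and a wild-type peak in 4 of 38, where 17.5% and 23.1% of all genes did. Of these 38 genes, 1 was under 1 FPKM in the mutant input and 15 were in the wild-type input. Among the peptidases, 4 of 7 genes carried a mutant peak and 6 a wild-type peak, and among the loading chaperones 5 and 8 of 11. Uggt1 held 25 mutant and 8 wild-type peaks, Ide 22 and 22, and Tpp2 19 and 4. The 3 constitutive proteasome subunits held 0 in both lists.

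The 5 genes whose pattern lay nearest to the median of the class I genes were Atf5, Nuak2, Atf3, Atxn7l1 and Mettl27. Likeness was the Euclidean distance over 3 log2 values from the 4 libraries (mutant ratio, wild-type ratio and mutant input over wild-type input), among 9819 genes with at least 1 FPKM in both inputs. The nearest, the transcription factor gene Atf5, lay at a distance of 0.20, with log2 values of −1.17, −0.89 and 1.86. The others lay between 0.37 and 0.46.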

How the data were processed

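RNA immunoprecipitation and input RNA of 1 mouse line were sequenced in 4 libraries, 1 per group. The tools were bedtools, HOMER 4.11.1, MACS2 2.2.7.1 and HISAT2 2.1.0, per the submitters' processing notes, and the builds mm10 and GRCm38, with no role given. The 2 deposited gene tables give a level per gene in each IP and input. Their headers name no unit. The deposited levels were read as FPKM, from column sums of 207301 to 321238 and from the evidence behind the authors' p-value per unit of level, which scaled with length in 346 pseudogenes (Spearman rho across genes 0.80). Read totals are not given, so depth is unknown. A log2 ratio, a p-value and a q-value stand beside the levels, per the file headers. The deposited log2 ratio equals that computed here to within 1.57e-09. The deposited narrowPeak files hold a score, a fold (a linear ratio at the summit), −log10 p-value and q-value and the summit's offset, and which control the caller was given is not stated.

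Ratios were log2 of (level + 0.01) over (level + 0.01), called past 2-fold with no test. In the wild-type table, which has no symbols, names came by gene identifier. Promoters were matched by symbol to RefSeq windows for 5 of the 6 genes of the mutant table. Scripts were tested on simulated data and ran in Python 3.11.15 with pandas 2.3.3. The members and lists were chosen with earlier results of these data known, and the motifs and the 14 kb limit were chosen after values had been seen, as was reading H2-K1 by annotation text. Besides the 10 members, named genes were, by rule, up to 4 per list with the highest absolute log2 value past 2-fold at 1 FPKM or more, and the 5 nearest in pattern. Alternatives were a pseudocount of 0.1 or 1, centring, a level filter, a 1.5-fold threshold, the authors' q-value under 0.05, and other peak rules. A gene that belonged to some lists is not reported here and was left out of their counts.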

Additional observations from a re-analysis of the deposited data

Results flagged for a closer look

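Of the genes named above, 10 had ratios of IP over input with opposite signs in the 2 constructs, each from 1 library pair, and the difference was not tested. H2-T22 had log2 ratios of −1.43 in the mutant and 0.39 in the wild type. Nlrc5 had 0.44 in the mutant and −2.55 in the wild type, where its levels were 0.0138 (IP) and 0.129 FPKM (input). Ifi44 had −0.66 and 2.02, and Gbp7 −0.34 and 1.54, in both cases with wild-type levels under 1 FPKM. Gbp3 had 0.10 and −0.32, also with wild-type levels under 1 FPKM. Among the marker genes, Lin28b itself had 0.29 in the mutant and −0.62 in the wild type, Col1a1 0.58 and −2.33 from levels under 1 FPKM in all 4 libraries, and Pdgfra 0.93 and −0.22. The epithelial markers Krt7 and Cdh1 had 0.11 and −0.19 in the mutant, against −0.88 and 0.26 in the wild type. None of the MHC class I genes in both tables had opposite signs at the pseudocount of 0.01 without centring.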

How the results depend on the processing

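Of 189 values recomputed under the alternatives, 170 were classed as the same and 0 called values reversed. That class includes counts that changed, such as 5 to 4. The level filter, the 1.5-fold threshold and the q-value rule cannot change a gene's log2 ratio. Part of the 170 was therefore fixed in advance, and the tally says little about how stable the results are. The mutant input was at least 2-fold higher for all 5 genes under each alternative run but a pseudocount of 1, which left 4 (Psmb10 at 0.98). Centring on the median of all genes made 1 gene higher in the mutant IP (Erap1, 1.20), took H2-D1 to −0.47 in the mutant, moved the mutant median to −0.32, and gave 1 gene with a higher mutant than wild-type ratio (Tapbp, 1.24) and a median difference of 0.20. It also moved the wild-type B2m ratio to 0.05. With centring the background shares were 17.8% higher and 23.5% lower in the mutant, against 14.3% and 15.8% in the wild type, and 13.1% and 18.3% for the difference. A 1.5-fold threshold made 1 gene higher in the mutant IP (13.3% of all genes) and 1 in the difference (15.4%), and 4 in place of 3 lower in the mutant (50.7%, Tapbp added) and 3 in place of 2 lower in the wild type (37.6%, H2-D1 added). For peaks, a −log10 q-value of at least 5 left 1 mutant peak in place of 2, and the opposite strand held 0 mutant peaks and 1 wild-type peak. No paired analysis was possible because each group has 1 library. Depth is unknown, so no counting interval was given, and folds of genes under 1 FPKM depend on the pseudocount.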
